A study of Homo sapiens with 15 samples.

Results

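The expression of 10 intermediate filament genes was followed through 5 related ovarian cancer lines: the keratins KRT7, KRT8, KRT18, KRT19, KRT80, KRT81, KRT17, KRT6A and KRT5, and vimentin (VIM). They were taken as the rows of the deposited expression table whose Ensembl identifier maps to these symbols, and all 10 were found among its 16604 genes. OVCAR4 is an established human line of high-grade serous ovarian carcinoma, and Ovcar4Parental is its platinum-sensitive form. Ov4Cis (cisplatin resistant) and Ov4Carbo (carboplatin resistant) came from OVCAR4 cells kept in rising doses of the drug until the IC50 had grown 2- to 10-fold. Ov4Carbo4 and Ov4Carbo7, also labelled carboplatin resistant, each descend from 1 cell of Ov4Carbo, so each represents a single clone. All lines were grown in DMEM with serum, and each has 3 biological replicates of polyA-selected RNA, 15 samples in all. Drug exposure at harvest is not given in the sources used here.

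Intermediate filaments are rope-like polymers that give cells mechanical strength. Keratins are the filaments of epithelia and assemble only as pairs of an acidic type I and a basic type II protein. KRT8 (type II) with KRT18 (type I) forms the basic network of simple, single-layered epithelia. KRT7 and KRT19 are added in ducts and glands, and KRT7 is a standard pathology marker of ovarian carcinoma. KRT5, KRT6A and KRT17 belong to basal or stressed stratified epithelium, and KRT81 to hair. Vimentin, a type III filament that polymerises with itself, is typical of mesenchymal cells and is also made by many carcinoma lines in culture.

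Values are log2 RPKM, reads per kilobase of gene and per library size on a log2 scale, as normalised and deposited by the authors. A step of 1 is a doubling. The median was 2.77 in every sample and the upper end 10.26, so the samples share one distribution, and the read depth is unknown. A gene was called when limma, fitted to all genes and samples, gave a Benjamini-Hochberg adjusted p under 0.05 and a log2 fold change of at least 1 in size. The numbers in the sample titles form 2 series. The lower numbers belong to 7 samples: both clones and Ov4Carbo replicate 1. The higher numbers belong to the other 8, from the parental line, Ov4Cis and Ov4Carbo replicates 2 and 3. No label names these series as batches, and Ov4Carbo replicate 1 stands apart from its fellow replicates. A difference between the series and a difference of either clone from the parental line or from Ov4Cis cannot be told apart. In comparisons with Ov4Carbo they are mixed in part, since its replicates lie in both series. Ov4Cis against the parental line, and one clone against the other, lie within a series.

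The labelled tissue was checked against marker lists. PAX8, the lineage factor of serous carcinoma, lay between 5.66 and 6.87 log2 RPKM in all samples. WT1, another serous marker, was low, at -6.37 to -3.74 in the parental samples and -0.98 at most elsewhere. Of the 8 serous markers with a row, Ov4Cis had 4 lower (MSLN, FOLR1, EMX2 and MUC16) and 1 higher (WT1), with a list median of -0.93 beside 0.04 for all genes. Ov4Carbo had 1 higher, Ov4Carbo4 1 higher and 2 lower, and Ov4Carbo7 2 lower. The epithelial genes EPCAM and CDH1 averaged 5.98 and 4.63 in the parental line, and 1.17 and -3.52 in Ov4Cis. Among 8 immune genes only CD14 has a row in the table, with at most 1.83 RPKM in any sample. It was called higher in Ov4Carbo7 than in the parental line, by 1.55 (SE 0.26, limma adjusted p = 3.73e-04). PTPRC and PECAM1, which define blood and endothelial cells, have no row.

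Against the parental line, every called change among the 10 genes was a fall. Ov4Cis had 9 genes lower, all but VIM, where 15.9% of all genes were called and 7.41% were called lower. In Ov4Carbo7 the same 9 keratins were lower (17.0% of all genes called, 7.75% lower). Ov4Carbo4 had 8 lower, without KRT8 and VIM (15.1% called, 7.70% lower), and Ov4Carbo had 6 lower, without KRT8, KRT18, KRT19 and VIM (12.7% called, 6.93% lower). The 10 genes had a median log2 fold change of -4.59 in Ov4Cis, beside 0.04 for all genes. The medians were -2.06 (all genes 0.03) in Ov4Carbo, -2.26 (0.07) in Ov4Carbo4 and -2.34 (0.02) in Ov4Carbo7. KRT7, KRT17, KRT80, KRT81, KRT6A and KRT5 were called lower in all 4 resistant lines, as were 1.65% of all genes. These 4 comparisons share the parental samples, so they are not independent of each other. The F-test of limma over the 5 lines passed for 10 of 10 genes, against 76.9% of all genes. In cultures measured as a whole, fewer cells making a keratin and less of its RNA in each cell cannot be told apart.

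**Figure D1:**
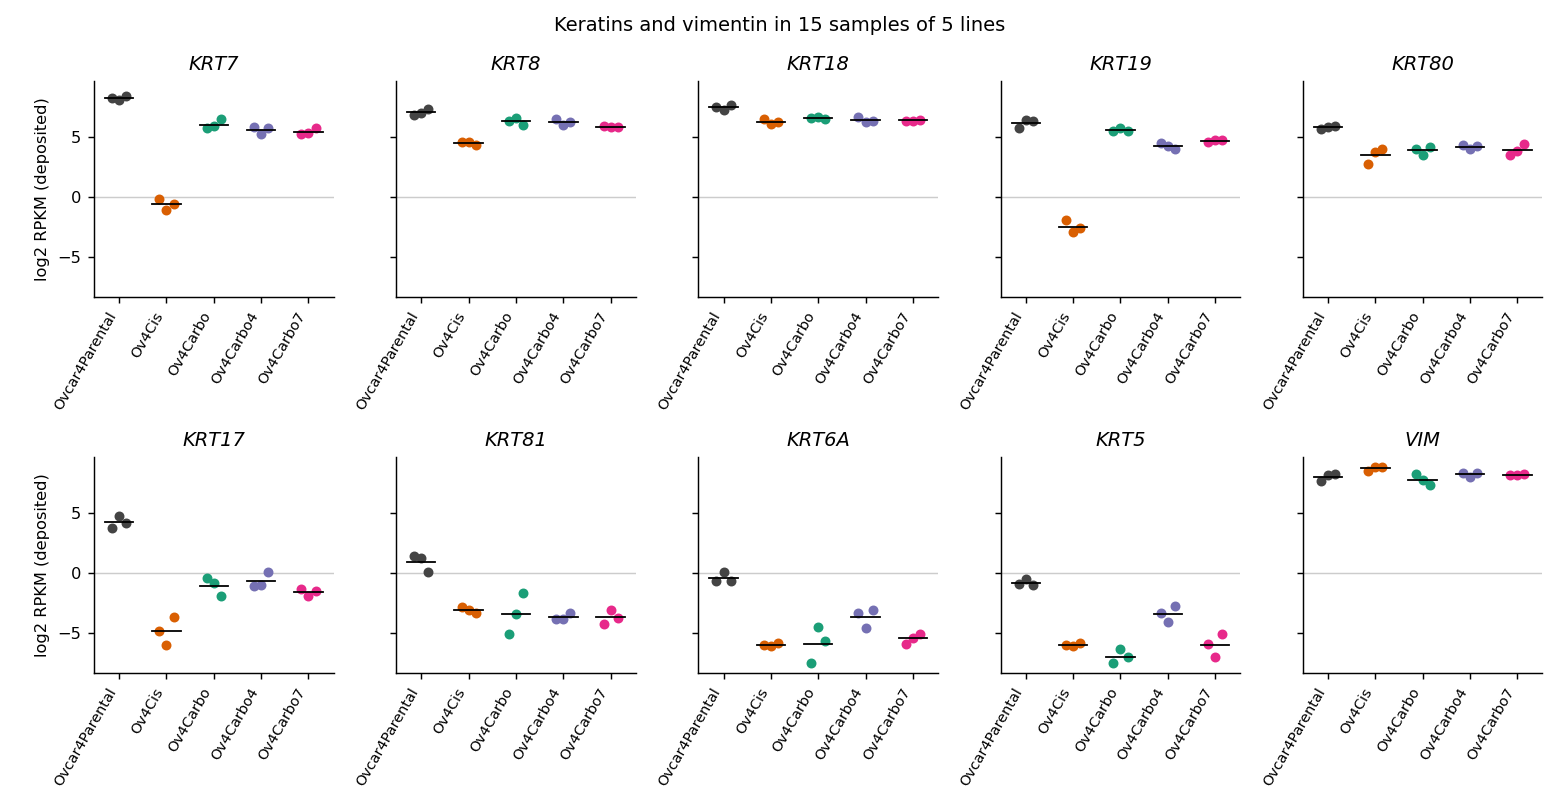
Deposited log2 RPKM of the 10 genes in 15 samples, 1 panel per gene, with points for the 3 replicates of each line and a bar for their mean. In Ov4Cis, KRT7 lies between -1.06 and -0.13 and KRT19 between -2.93 and -1.85, while VIM lies between 8.55 and 8.88.

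KRT8 (ENSG00000170421), the type II partner of the simple epithelial pair, measured 6.87, 7.01 and 7.38 in parental replicates 1 to 3. In Ov4Cis it measured 4.59, 4.58 and 4.34. The carboplatin-resistant samples lay between these groups, from 5.85 to 6.62, with no overlap with either. The fall in Ov4Cis was -2.58 (SE 0.17, limma adjusted p = 1.79e-07), a 6.0-fold drop in RPKM. In Ov4Carbo7 it was -1.21 (SE 0.17, adjusted p = 1.06e-04). Ov4Carbo, at -0.74 (SE 0.17, adjusted p = 0.00526), and Ov4Carbo4, at -0.79 (SE 0.17, adjusted p = 0.00263), passed the p threshold but not the limit on fold change. Ov4Cis was also called lower than each carboplatin-resistant line, by -1.84 against Ov4Carbo, -1.79 against Ov4Carbo4 and -1.37 against Ov4Carbo7.

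KRT18 (ENSG00000111057), the type I partner encoded next to KRT8 on the chromosome, did not set Ov4Cis apart from the other resistant lines. It measured 7.57, 7.31 and 7.70 in the parental line and 6.56, 6.10 and 6.31 in Ov4Cis. The other resistant samples ran from 6.27 to 6.71. All 12 resistant samples were below the parental ones, and those of Ov4Cis overlapped with each carboplatin-resistant line. Falls were called in Ov4Cis (-1.20, SE 0.14, adjusted p = 3.28e-05), Ov4Carbo4 (-1.07, SE 0.14, adjusted p = 9.62e-05) and Ov4Carbo7 (-1.10, SE 0.14, adjusted p = 6.54e-05). Ov4Carbo was just short of the limit, at -0.90 (SE 0.14, adjusted p = 5.20e-04), and passed it at -1.01 without parental replicate 2. The Ov4Carbo4 call was lost at -0.98 without parental replicate 3 and at -0.97 without Ov4Carbo4 replicate 2. Between Ov4Cis and Ov4Carbo the KRT18 difference was -0.30, with a 95% interval from -0.61 to 0.01, whereas for KRT8 the interval ran from -2.21 to -1.48.

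KRT7 (ENSG00000135480), a type II keratin of glands and ducts, had the highest level of the 9 keratins in the parental line, at 8.30, 8.11 and 8.43. It held rank 38 to 65 from the top among 16604 genes in the parental samples and rank 13890 to 14941 in Ov4Cis. The Ov4Cis samples measured -0.13, -1.06 and -0.52. Every resistant sample lay below the parental range, and the Ov4Cis samples lay far below the rest. The fall in Ov4Cis was -8.85 (SE 0.26, limma adjusted p = 1.74e-10), a 461-fold drop in RPKM. On the log2(RPKM + 1) scale, which compresses low values, it was -7.53.

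The carboplatin-resistant lines kept much more KRT7. Ov4Carbo measured 5.79, 5.92 and 6.53, Ov4Carbo4 5.89, 5.27 and 5.75, and Ov4Carbo7 5.30, 5.33 and 5.82. Their falls from the parental line were -2.21, -2.64 and -2.80 (SE 0.26 each), the largest adjusted p being 5.90e-05. These 3 lines overlapped, and no difference between any pair of them passed the threshold. The widest, Ov4Carbo7 against Ov4Carbo, was -0.59, with a 95% interval from -1.16 to -0.02 and an adjusted p of 0.0951. Ov4Cis was lower than each of them, the smallest difference being -6.05 (SE 0.26, adjusted p = 1.19e-08) against Ov4Carbo7.

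KRT19 (ENSG00000171345), the type I keratin of simple epithelia that lacks most of the usual tail domain, measured 5.81, 6.46 and 6.35 in the parental line. In Ov4Cis it measured -1.85, -2.93 and -2.57. That fall was -8.65 (SE 0.25, limma adjusted p = 1.61e-10), a 403-fold drop in RPKM, and -5.97 on the log2(RPKM + 1) scale. The carboplatin-resistant lines split in their KRT19 values. Ov4Carbo, at 5.50, 5.80 and 5.52, was just below the parental samples and did not pass (-0.60, SE 0.25, adjusted p = 0.0782). Ov4Carbo4, at 4.51, 4.30 and 4.01, was lower than the parental line by -1.93 (SE 0.25, adjusted p = 6.47e-05) and lower than its source population Ov4Carbo by -1.33 (SE 0.25, adjusted p = 0.00112). Ov4Carbo7, at 4.66, 4.75 and 4.82, was lower than the parental line by -1.46 (SE 0.25, adjusted p = 4.49e-04). Against Ov4Carbo it differed by -0.86 (SE 0.25, adjusted p = 0.0161), within the limit on fold change.

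KRT80 (ENSG00000167767), a type II keratin found near desmosomes, fell in all resistant lines. It measured 5.67, 5.87 and 5.98 in the parental line and between 2.74 and 4.43 in the 12 resistant samples, with no overlap. Ov4Cis was the most uneven line, at 2.74, 3.82 and 4.0. The fall was -2.32 in Ov4Cis, while Ov4Carbo had -1.91, Ov4Carbo4 -1.61 and Ov4Carbo7 -1.89 (SE 0.31 each), with adjusted p of at most 0.00133. No pair of resistant lines differed past the threshold for KRT80. The widest difference, Ov4Cis against Ov4Carbo4, was -0.71, with a 95% interval from -1.38 to -0.04 and an adjusted p of 0.0806, and the samples of these lines did not overlap.

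**Figure D2:**
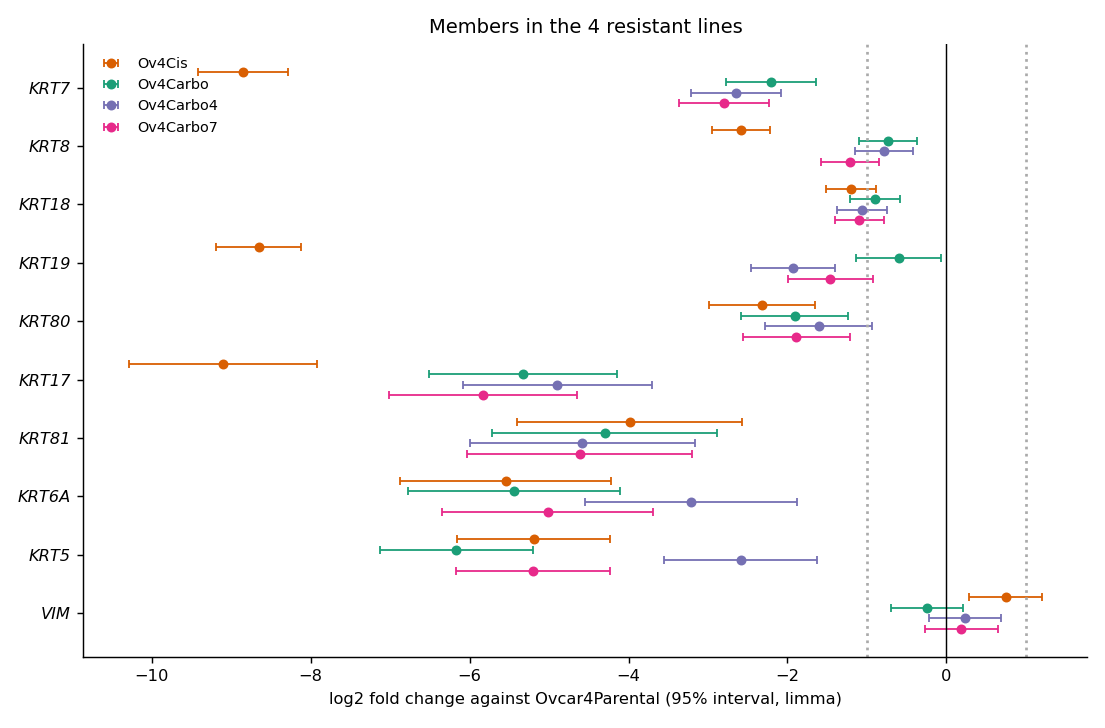
Log2 fold change of each gene in the 4 resistant lines against Ovcar4Parental, with 95% intervals from the limma fit (3 samples per line). Dotted lines mark a log2 fold change of 1 in either direction. KRT7, KRT19 and KRT17 are spread widely between Ov4Cis and the other lines, KRT18 and KRT80 much less, and VIM lies on the positive side in Ov4Cis at 0.74.

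Among keratins of stratified epithelium, KRT17 (ENSG00000128422) was the one well expressed in the parental line, at 3.80, 4.80 and 4.18. It dropped to -0.45, -0.83 and -1.92 in Ov4Carbo, to -1.06, -0.96 and 0.12 in Ov4Carbo4, and to -1.29, -1.95 and -1.46 in Ov4Carbo7. Ov4Cis was lowest, at -4.82, -6.0 and -3.70. The highest resistant sample, at 0.12, was far below the lowest parental one, at 3.80. The falls were -9.10 in Ov4Cis (SE 0.55, limma adjusted p = 9.38e-08) and -5.33, -4.89 and -5.83 in Ov4Carbo, Ov4Carbo4 and Ov4Carbo7 (SE 0.55 each). On the log2(RPKM + 1) scale the same falls were -4.28, -3.75, -3.60 and -3.91, all still called, so the spread between the lines was much smaller there. KRT17 in Ov4Cis was called lower than in Ov4Carbo by -3.77 (SE 0.55, adjusted p = 2.17e-04), but all of those samples are under 1 RPKM, and on the log2(RPKM + 1) scale the difference was -0.53 (adjusted p = 0.0512).

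KRT81, KRT6A and KRT5 were low throughout. KRT81 (ENSG00000205426), a hair keratin, had 2.62, 2.35 and 1.09 RPKM in the parental samples and 0.0297 to 0.320 RPKM in the resistant ones. KRT6A (ENSG00000205420), a keratin of wounded skin, had 0.621, 1.05 and 0.617 RPKM in the parental line and at most 0.120 elsewhere. KRT5 (ENSG00000186081), the basal type II keratin, had 0.526, 0.716 and 0.515 RPKM in the parental line and at most 0.146 elsewhere. For each of the 3 genes, every parental sample was above every resistant sample. Log2 fold changes ran from -4.61 to -3.99 for KRT81, from -5.55 to -3.21 for KRT6A and from -6.17 to -2.59 for KRT5, and all 12 were called.

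The size of these last falls is uncertain. KRT5 and KRT6A had the same value in 3 of 3 Ov4Cis samples, in 2 of 3 Ov4Carbo7 samples and in 1 of 3 samples of Ov4Carbo and of Ov4Carbo4. In Ov4Cis 52 or 53 genes of the table lay below them. In Ov4Carbo4 309 to 613 genes lay below KRT5 and 222 to 489 below KRT6A, so there they were further from the lowest values. On the log2(RPKM + 1) scale their falls were -0.79 to -0.69 for KRT6A and -0.65 to -0.52 for KRT5, still past the p threshold but under the limit on fold change. KRT81 remained called on that scale, at -1.44 to -1.36.

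VIM (ENSG00000026025) was among the most abundant transcripts of all lines. It measured 7.68, 8.14 and 8.24 in the parental line and 8.55, 8.88 and 8.85 in Ov4Cis. Ov4Carbo had 8.23, 7.77 and 7.32, Ov4Carbo4 8.35, 8.03 and 8.38, and Ov4Carbo7 8.15, 8.21 and 8.26. Ov4Cis samples were above those of every other line, and the remaining lines overlapped. The rise in Ov4Cis was 0.74 (SE 0.21, limma adjusted p = 0.0145), under the limit on fold change. In the carboplatin-resistant lines VIM differed from the parental line by -0.25, 0.23 and 0.19 for Ov4Carbo, Ov4Carbo4 and Ov4Carbo7, with 95% intervals of -0.70 to 0.21, -0.22 to 0.69 and -0.27 to 0.65. A fall or rise of VIM as large as 1 log2 unit is outside these intervals. For the clones the intervals also hold any difference between the title series, so they do not bound a change due to the line alone. Against Ov4Carbo, Ov4Cis had 0.99 more (SE 0.21, adjusted p = 0.00327), and this became a call at 1.22 without Ov4Carbo replicate 1 and at 1.10 without Ov4Cis replicate 1.

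The direct comparisons of resistant lines placed the largest keratin differences between Ov4Cis and the rest. Against Ov4Carbo, Ov4Cis had 4 of the 10 genes called, KRT7, KRT8, KRT19 and KRT17, all lower (13.8% of all genes called). The same 4 were called against Ov4Carbo7 (14.7%). Against Ov4Carbo4 there were 6 lower (16.8%), the additional genes being KRT6A and KRT5. On the log2(RPKM + 1) scale KRT6A and KRT5 differed there by -0.10 and -0.12 and were not called. KRT17 was not called on that scale against either clone, at -0.68 for Ov4Carbo4 and -0.37 for Ov4Carbo7. Both comparisons with a clone cross the title series. Within the carboplatin-resistant lines, Ov4Carbo4 against Ov4Carbo had 3 calls (14.2% of all genes), KRT19 lower and KRT6A and KRT5 higher, though the KRT6A samples overlapped. Ov4Carbo7 against Ov4Carbo had 0 calls under limma (13.3% of all genes), with 2 genes, KRT8 and KRT19, past the adjusted p alone and 3 at an unadjusted p under 0.05. Ov4Carbo7 against Ov4Carbo4 had 2 (20.9%), KRT6A and KRT5, both lower. The KRT6A and KRT5 differences between carboplatin-resistant lines were at most 0.13 in size on the log2(RPKM + 1) scale and were not called there. The KRT6A call between the clones was lost without Ov4Carbo4 replicate 1 or 3, or without Ov4Carbo7 replicate 1 or 2, with adjusted p of 0.0543 to 0.0973. Without Ov4Carbo4 replicate 3, KRT6A was not called in Ov4Carbo4 against Ov4Carbo either (adjusted p = 0.0503).

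With Ov4Carbo replicate 1 left out, the comparison of Ov4Carbo with the parental line lay within 1 series. The same 6 genes were called there, with log2 fold changes of -2.06 for KRT7, -5.64 for KRT17, -1.96 for KRT80, -3.45 for KRT81, -4.63 for KRT6A and -5.89 for KRT5. VIM moved from -0.25 to -0.47 and was not called (adjusted p = 0.0677). A term for the title series, estimated from Ov4Carbo alone, left 5 of the 8 falls in Ov4Carbo4 and 7 of the 9 in Ov4Carbo7. KRT81, KRT6A and KRT5 were lost in the former, and KRT81 and KRT19 in the latter, where KRT19 was at -1.30 (adjusted p = 0.0572). Under this term VIM changed sign in both clones, to -0.45 in Ov4Carbo4 and -0.49 in Ov4Carbo7, neither past the threshold. With the same term Ov4Cis had 7 calls against Ov4Carbo4 (21.1% of all genes) and 5 against Ov4Carbo7 (15.9%). KRT17 was no longer called against Ov4Carbo7, at -2.34 (limma adjusted p = 0.0962).

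Since RPKM is scaled by gene length, linear values of the 9 keratins can be added to describe their mixture. No test was made on these sums. The 9 keratins together had 746, 743 and 885 RPKM in the parental samples, and the Ov4Cis samples 127, 108 and 117. Ov4Carbo held 298 to 330, Ov4Carbo4 220 to 302 and Ov4Carbo7 222 to 253 RPKM. No Ov4Cis sample reached the sum of any other line. VIM in the same units was 205 to 302 RPKM in the parental line and 375 to 473 in Ov4Cis. The ratio of VIM to summed keratin was 0.332 ± 0.0532 in the parental line and 3.77 ± 0.733 in Ov4Cis (SD, n = 3). It was 0.723 ± 0.256 in Ov4Carbo, 1.20 ± 0.118 in Ov4Carbo4 and 1.27 ± 0.0564 in Ov4Carbo7. The sums leave out 7 other keratins with a row, of which KRT10, a type I keratin of differentiating skin, was by far the most abundant, at 23.1 RPKM on average in the parental line and 34.1 in Ov4Cis. With all 16 keratins in the sum, a choice made after seeing the data, totals were 777 to 913 RPKM in the parental samples and 140 to 168 in those of Ov4Cis. The ratio of VIM to keratin was then 0.319 ± 0.0515 in the parental line and 2.88 ± 0.583 in Ov4Cis (SD, n = 3). The carboplatin-resistant lines had 0.655, 1.08 and 1.10 in the order above.

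**Figure D3:**
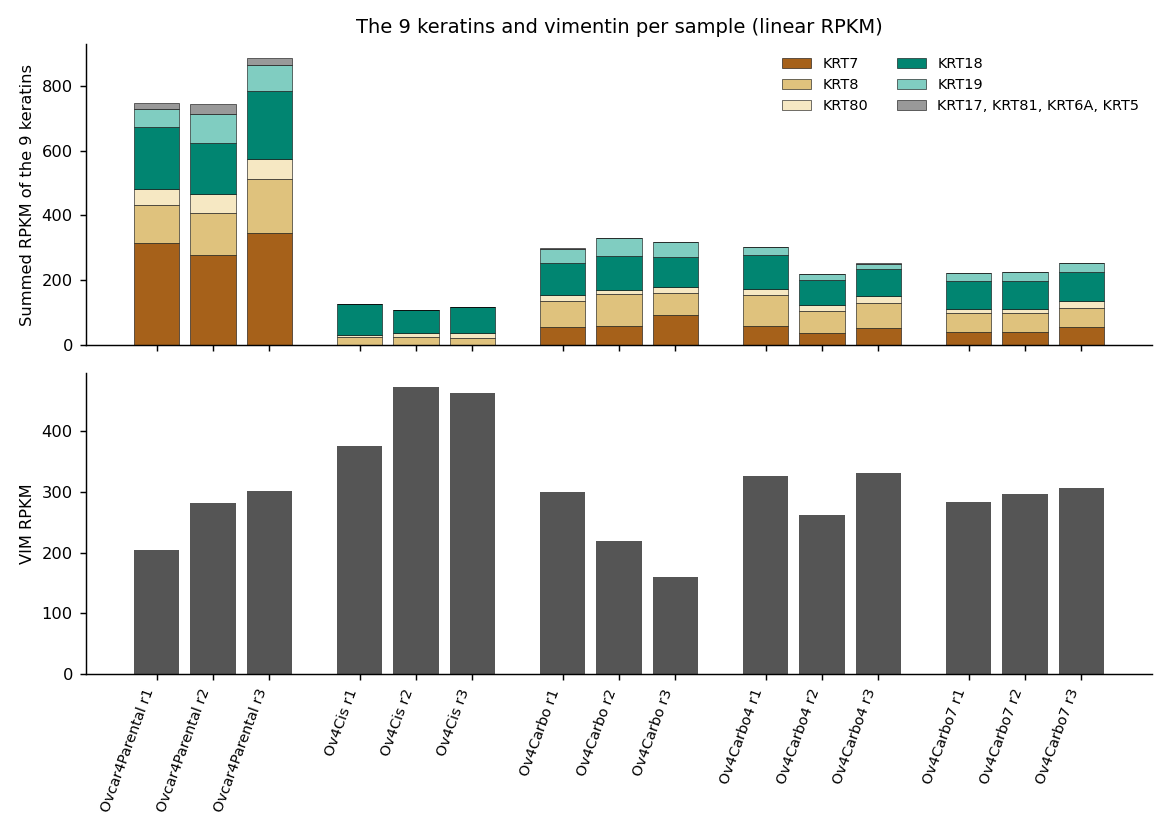
Linear RPKM per sample: stacked bars for the 9 keratins (top, colours as in the legend) and bars for VIM (bottom), both starting at 0. Their sum is 743 to 885 RPKM in the parental samples and 108 to 127 in Ov4Cis, where KRT18 makes up most of each bar.

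The makeup of this sum differed as well. KRT7 supplied 39.5% ± 2.49 of the summed RPKM of the 9 keratins in the parental line and 0.589% ± 0.137 in Ov4Cis (SD, n = 3). KRT18 supplied 23.4% ± 2.04 in the parental line and 68.8% ± 5.44 in Ov4Cis. In the carboplatin-resistant lines KRT18 was the largest of the 9 in every sample, with means of 31.4%, 34.4% and 37.0% in Ov4Carbo, Ov4Carbo4 and Ov4Carbo7, and KRT7 held 21.9%, 19.5% and 19.3%. KRT8P3, a pseudogene of KRT8 left out of the sums, averaged 78.9, 78.4 and 59.4 RPKM in these lines. KRT8 averaged 82.4, 79.3 and 58.7, and KRT18 98.9, 88.8 and 86.2. The rank of KRT18 and the shares and ratios given here may thus depend on how reads were divided between KRT8 and KRT8P3. That division was not tested. With all 16 keratins counted, KRT18 supplied 22.5% ± 1.96 in the parental line and 52.5% ± 3.66 in Ov4Cis, where KRT10 supplied 22.1% ± 1.59. The ratio of type II to type I RNA among the 9 keratins was 1.82 ± 0.0965 in the parental line and 0.455 ± 0.114 in Ov4Cis. The carboplatin-resistant lines lay between, at 1.13 ± 0.124, 1.37 ± 0.106 and 1.06 ± 0.0885. Over all 16 keratins the ratio was 1.64 ± 0.0990 in the parental line and 0.318 ± 0.0763 in Ov4Cis. There it was 0.926 ± 0.0925 in Ov4Carbo, 1.09 ± 0.101 in Ov4Carbo4 and 0.815 ± 0.0860 in Ov4Carbo7, so which type exceeded the other in Ov4Carbo and Ov4Carbo7 turned on whether the other keratins were counted. Within the simple epithelial pair, KRT8 to KRT18 was 0.743 ± 0.110 in the parental line and 0.286 ± 0.0541 in Ov4Cis. It was 0.829 ± 0.116 in Ov4Carbo, 0.892 ± 0.0140 in Ov4Carbo4 and 0.682 ± 0.0329 in Ov4Carbo7, so the parental range of 0.617 to 0.814 overlapped with Ov4Carbo and Ov4Carbo7. With matches on either strand counted, the KRT18 transcript shared 18.1% of its 75-base windows with transcripts of KRT8. The longest KRT8 transcript shared at most 0.254% of its windows with any 1 other gene (LY9). Whether counting used strand is not given in the sources used here, and how such reads were divided was not tested.

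Across the 15 samples, as a description over samples that share lines, Pearson's r was 0.976 for KRT7 with KRT19 and 0.961 for KRT7 with KRT8. KRT18 ran less closely with the other simple keratins, with r of 0.734 for KRT8, 0.670 for KRT7 and 0.541 for KRT19. VIM had a negative r with all 9 keratins, from -0.756 with KRT19 to -0.0835 with KRT5. Of 13265 genes searched, those with a pattern most like KRT8 were its pseudogenes KRT8P3 (r = 0.997) and KRT8P45 (0.993), and LAD1 (0.984), which encodes an anchoring filament protein. Most like KRT19 were its pseudogene KRT19P1 (0.991), the epithelial splicing regulator ESRP2 (0.984) and the secreted protease ADAMTS1 (0.982). Most like VIM were the peptide hormone gene APLN (0.966), NAGK (0.953), a sugar kinase, and the adaptor BCAR1 (0.947). With n = 15 samples from 5 lines these are not 15 independent points.

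KRT8 and KRT18 have many processed pseudogenes, sequence copies without introns, and reads of gene and copy can be hard to place. The table has 21 keratin pseudogenes whose highest line mean reached log2 RPKM 0. KRT8P3 averaged 7.0 log2 RPKM in the parental line and 4.42 in Ov4Cis, and KRT8 differed from it by -0.10 to 0.17 in all 15 samples. KRT19P1 averaged 2.40 in the parental line and -4.16 in Ov4Cis, and KRT19 exceeded it by 1.08 to 3.98. All 11 KRT18 pseudogenes had negative log2 fold changes in all 4 resistant lines, with a median of -1.36 in Ov4Cis (KRT18 itself -1.20). For Ov4Carbo the median was -0.78 (KRT18 -0.90), for Ov4Carbo4 -1.12 (-1.07) and for Ov4Carbo7 -1.04 (-1.10). Of the 9 KRT8 pseudogenes 8 were negative in each line. The exception, KRT8P12, rose by 1.17 in Ov4Carbo7 (SE 0.21, limma adjusted p = 8.26e-04) and stood at 0.96 above the parental line in Ov4Cis (SE 0.21, adjusted p = 0.00349). How reads were divided between KRT8 and KRT8P3 was not tested, so levels of both are uncertain, and so are the shares and ratios that include KRT8.

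**Figure D4:**
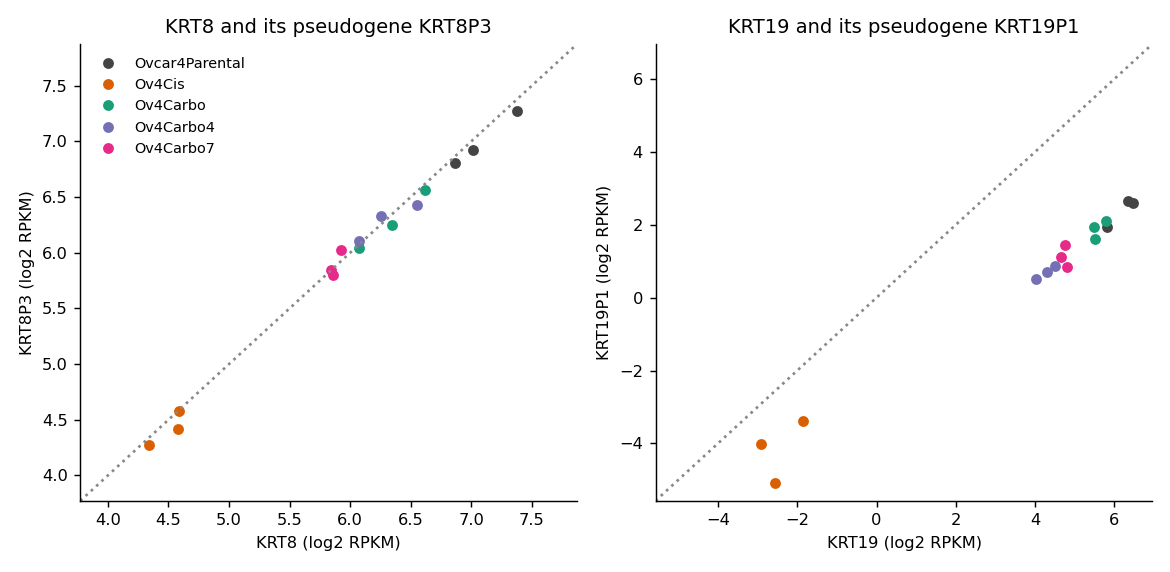
Deposited log2 RPKM of KRT8 against KRT8P3 (left) and KRT19 against KRT19P1 (right), 1 point per sample, coloured by line, with a dotted line where both are equal. KRT8 and KRT8P3 lie on that line, within -0.10 to 0.17, and KRT19P1 lies below it by 1.08 to 3.98.

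Shared sequence was also counted, on either strand, among spliced transcripts of GENCODE v29. The transcript of KRT81 shared 33.0% of its 75-base windows with KRT86, a neighbouring hair keratin, and that of KRT6A shared 25.3% with KRT6C and 17.4% with KRT6B. KRT86 fell with KRT81 in all 4 resistant lines, with the smallest fall at -2.30 in Ov4Carbo7 (SE 0.62, limma adjusted p = 0.0103) and the largest at -3.66 in Ov4Carbo4. VIM shared 27.5% of windows with its antisense gene VIM-AS1, and KRT7 9.05% with KRT7-AS. Whether counting used strand is not given in the sources used here, so reads of these pairs cannot be told apart. VIM-AS1 averaged 0.17 log2 RPKM in the parental line and 0.68 in Ov4Cis, far below VIM, and was called in none of the 4 resistant lines. KRT19 and KRT80 shared no such window with another gene.

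Upstream sequences are shown for the genes with an entry in the RefSeq promoter table (GRCh38.p14), which were 3 of the 10: KRT8 and KRT5, which were lower in Ov4Cis, and VIM, which was not. Each is the 250 bases before the annotated start, 5' to 3' on the gene's strand, and capitals mark a motif match. KRT8 lies at chr12:52926470-52926719 (minus strand), KRT5 at chr12:52520395-52520644 (minus strand) and VIM at chr10:17227991-17228240 (plus strand).
KRT8: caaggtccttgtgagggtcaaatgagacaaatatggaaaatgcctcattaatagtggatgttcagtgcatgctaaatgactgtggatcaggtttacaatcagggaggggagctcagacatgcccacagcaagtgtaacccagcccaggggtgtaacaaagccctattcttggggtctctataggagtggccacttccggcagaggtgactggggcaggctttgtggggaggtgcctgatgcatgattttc
KRT5: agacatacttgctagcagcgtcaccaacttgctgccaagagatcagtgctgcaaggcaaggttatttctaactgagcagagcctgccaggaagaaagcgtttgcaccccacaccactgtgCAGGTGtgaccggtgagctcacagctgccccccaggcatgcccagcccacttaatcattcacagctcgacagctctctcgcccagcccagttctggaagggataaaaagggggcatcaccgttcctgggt
VIM: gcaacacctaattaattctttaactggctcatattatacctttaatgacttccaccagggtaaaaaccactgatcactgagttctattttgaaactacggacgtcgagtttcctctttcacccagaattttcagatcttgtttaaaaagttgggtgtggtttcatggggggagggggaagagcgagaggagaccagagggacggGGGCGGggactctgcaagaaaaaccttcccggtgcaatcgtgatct
The E-box CAGGTG, the core bound by ZEB and SNAIL repressors, was found on either strand in KRT5 only, starting 130 bases before the gene. The GC box GGGCGG was found in VIM only, 46 bases before the start. Neither TGANTCA, searched as the AP-1 motif, nor TATAAA, searched as the TATA box, matched in any of the 3. Only these strings were searched, so variants of either motif would be missed. Of 35116 promoter windows of this length, 17.5% held CAGGTG, 42.6% GGGCGG, 6.57% TGANTCA and 10.7% TATAAA. GC content was 50.4% for KRT8, 56.0% for KRT5 and 46.0% for VIM, against a median of 58.0%. A match describes these letters only.

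The lists of other intermediate filaments held 5 type I keratins, 2 type II keratins, 7 type III or IV filaments and 3 lamins in the table. Of the 5 type I keratins, 1 fell in Ov4Carbo4 and 2 fell in each other resistant line, and none rose against the parental line. The shares of all genes called were 15.9% (Ov4Cis), 12.7% (Ov4Carbo), 15.1% (Ov4Carbo4) and 17.0% (Ov4Carbo7). Counts this small say little about the list. Its median log2 fold change was -1.44, -1.69, -0.96 and 0.54 in the same order, so it was positive for Ov4Carbo7. Of the 2 type II keratins KRT86 fell in all 4 lines, and KRT78 rose by 1.97 in Ov4Cis (limma adjusted p = 0.0241) and by 2.05 in Ov4Carbo7 (adjusted p = 0.0175), with an SE of 0.61. KRT78 stayed low, at -1.32 log2 RPKM or less in every sample. KRT23 averaged 2.72 ± 0.43 log2 RPKM in the parental line (SD, n = 3) and fell in each resistant line, from -1.74 in Ov4Carbo4 to -4.08 in Ov4Carbo7 (SE 0.56, limma adjusted p of at most 0.0252). The 3 lamins, which line the nucleus, differed from the parental line by -0.70 to 0.31 in the resistant lines and were not called. LMNB1 was lower in Ov4Carbo7 than in Ov4Carbo4 by -1.01 (SE 0.12, adjusted p = 2.79e-05).

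Nestin (NES), a type IV filament of progenitor cells that assembles with vimentin, separated the clones. It averaged 4.54 log2 RPKM in the parental line, with a range of 4.31 to 4.67, and 4.45 in Ov4Cis. Ov4Carbo4 had 6.23 to 6.53 and Ov4Carbo7 had 1.52 to 2.42, with no overlap. NES was higher in Ov4Carbo4 than in the parental line by 1.86 (SE 0.28, limma adjusted p = 2.28e-04) and lower in Ov4Carbo7 by -2.45 (SE 0.28, adjusted p = 2.21e-05). Between the clones the difference was -4.31 (SE 0.28, adjusted p = 2.43e-07), while VIM differed by -0.04. INA (internexin) and SYNC (syncoilin) had the opposite order, higher in Ov4Carbo7 than in Ov4Carbo4 by 1.85 (SE 0.37, adjusted p = 0.00108) and 1.98 (SE 0.21, adjusted p = 1.08e-05). SYNM (synemin), which ranged from 2.67 in Ov4Carbo to 3.74 in Ov4Carbo4, was not called against the parental line.

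A list of 21 genes, called linkers here, was also followed. It held proteins that tie keratin filaments to junctions or to each other. It also held genes for which no such role is claimed here, such as KRTCAP3 and TRIM29, and they enter the counts and medians. In Ov4Cis 10 fell and 1 rose (15.9% of all genes called), and in Ov4Carbo 6 fell (12.7%). In Ov4Carbo4 4 fell and 1 rose (15.1%), and in Ov4Carbo7 7 fell (17.0%). The list medians were -0.65, -0.47, -0.18 and -0.62, beside 0.04, 0.03, 0.07 and 0.02 for all genes. SFN (stratifin), which binds keratins, averaged 5.74 ± 0.12 log2 RPKM in the parental line and -1.70 ± 0.07 in Ov4Cis (SD, n = 3). That was a fall of -7.44 (SE 0.14, limma adjusted p = 9.02e-12). Epiplakin (EPPK1), a cytolinker of keratin bundles, went from 4.94 ± 0.22 in the parental line to -4.75 ± 1.07 in Ov4Cis and was lower in the 3 other resistant lines as well. Periplakin (PPL) fell by -5.26 in Ov4Cis (SE 0.19, adjusted p = 1.39e-09), and plakophilin 3 (PKP3), a desmosome plaque protein, by -6.46 (SE 0.23, adjusted p = 1.07e-09).

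Envoplakin (EVPL), the partner of periplakin, stood at -2.94 against the parental line in Ov4Cis (SE 0.21, limma adjusted p = 3.82e-07) and was higher in Ov4Carbo4 by 1.33 (SE 0.21, adjusted p = 3.40e-04). FAM83H, which organises keratin filaments, fell in Ov4Cis by -3.57 (SE 0.18, adjusted p = 2.43e-08) and was at -0.67, -0.76 and -0.70 in Ov4Carbo, Ov4Carbo4 and Ov4Carbo7, under the limit on fold change. TRIM29 and KRTCAP3 were called lower in all 4 resistant lines, with KRTCAP3 between -5.70 and -2.33. Plectin (PLEC), which links intermediate filaments of many kinds, was called in none of the 4 lines.

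**Figure D5:**
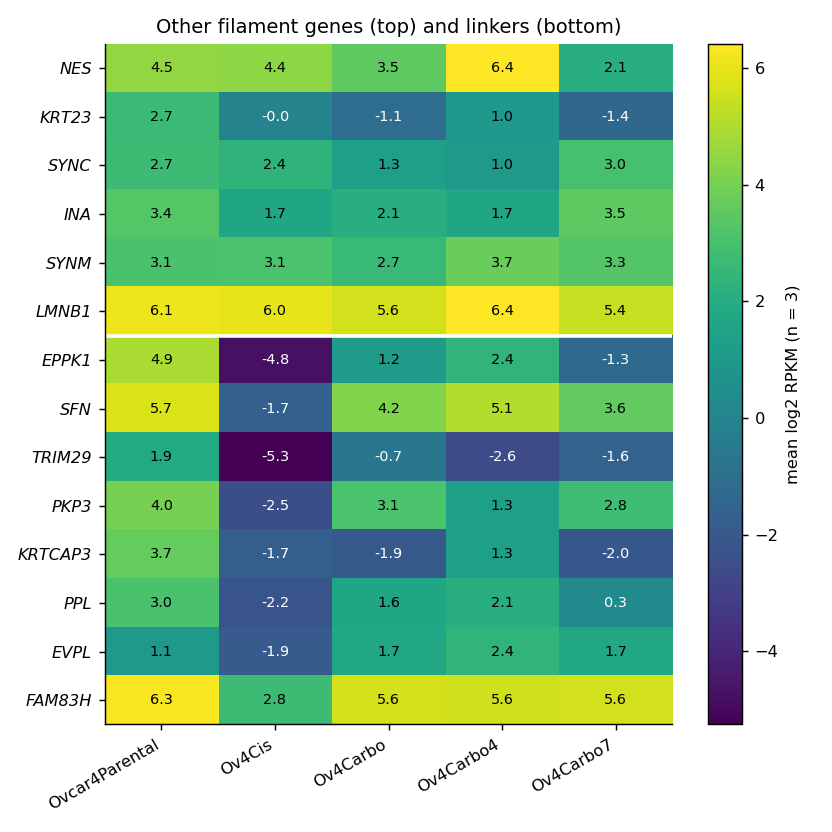
Mean log2 RPKM (n = 3) in each line for 6 other filament genes (top) and 8 linkers (bottom), printed in each cell and shown as colour. EPPK1, SFN, TRIM29, PKP3, PPL, EVPL and FAM83H have their lowest mean in Ov4Cis, and NES is highest in Ov4Carbo4 and lowest in Ov4Carbo7.

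Markers of other cell types moved beside the keratins. All 15 epithelial markers (EPCAM and CDH1 among them) fell in Ov4Cis. Ov4Carbo7 had 14 of the 15 epithelial markers lower, Ov4Carbo 10 and Ov4Carbo4 8, and none rose. For this and the other marker lists, the share of all genes called was 15.9% in Ov4Cis and 12.7% in Ov4Carbo. It was 15.1% in Ov4Carbo4 and 17.0% in Ov4Carbo7. The summed level of the epithelial markers was 334 to 425 RPKM in the parental samples and 13.7 to 18.2 in those of Ov4Cis. It was 121 to 174 in Ov4Carbo, 139 to 166 in Ov4Carbo4 and 40.1 to 53.2 in Ov4Carbo7. Of the 11 mesenchymal markers with a row, VIM not among them, 5 rose and 1 fell in Ov4Cis, 4 rose and 3 fell in Ov4Carbo, 5 rose and 3 fell in Ov4Carbo4, and 6 rose and 2 fell in Ov4Carbo7. Their sum was 34.2 to 43.6 RPKM in the parental samples and 209 to 248 in those of Ov4Cis. For Ov4Carbo it was 77.7 to 105, for Ov4Carbo4 160 to 187 and for Ov4Carbo7 82.7 to 93.3. SPARC alone supplied much of the rise in these sums. Its mean was 2.68 RPKM in the parental line, against 132 (Ov4Cis), 56.5 (Ov4Carbo), 122 (Ov4Carbo4) and 33.0 (Ov4Carbo7). The median log2 fold change of the list was smaller, at 0.80, 0.28, 0.46 and 1.07 in the same order. ZEB1, a repressor of epithelial genes, averaged 2.07 log2 RPKM in the parental line, 3.75 in Ov4Cis and 3.42 in Ov4Carbo7. Of the 3 endothelial genes with a row, CDH5 was called higher in Ov4Cis and Ov4Carbo4, KDR was called lower in the 3 carboplatin-resistant lines, and VWF was not called against the parental line. CDH5 was 2.31 to 2.58 log2 RPKM in the parental samples and 4.98 to 5.29 in Ov4Cis, while VWF averaged -0.19 and -0.55 and KDR -1.88 and -0.89 in these lines. Their sum was 6.37 to 7.40 RPKM in the parental samples and 32.3 to 40.9 in Ov4Cis. It was 4.27 to 6.06 in Ov4Carbo, 20.7 to 25.2 in Ov4Carbo4 and 8.85 to 10.3 in Ov4Carbo7. The 3 mesothelial genes with a row (BNC1, LRRN4 and UPK3B) summed to 70.4 to 93.1 RPKM in the parental samples and 31.3 to 57.6 in Ov4Cis. They summed to 44.3 to 49.7 in Ov4Carbo, 13.2 to 16.1 in Ov4Carbo4 and 26.5 to 28.7 in Ov4Carbo7. BNC1 was called higher in all 4 resistant lines, LRRN4 lower in Ov4Carbo and Ov4Carbo4, and UPK3B lower in both clones. BNC1 averaged 0.142 RPKM in the parental line and at most 0.660 in a resistant line, so its calls rest on low values. UPK3B, at 77.9 RPKM on average in the parental line, made up most of the mesothelial sums. The part of these markers in the keratin results was not tested.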

How the data were processed

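RNA was measured in 15 samples of 5 lines, grouped by the lines named in the labels. The deposited table holds log2 RPKM after conditional quantile normalization (cqn) by the authors, as its name states, which adjusts for length and GC content. The submitters' processing notes name BWA 0.7.15-r1140, HTSeq, hg19 and GRCh37, with no role or order. The threshold in the table's name has no stated rule. Quantile-type normalization removes differences in overall RNA amount, and low values depend on its offset. The table has 0 missing values, and symbols matched 16448 of 16604 genes.

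limma 3.58.1 (R 4.3.3; lmFit, eBayes, two-sided, all genes and samples) gave 10 contrasts with Benjamini-Hochberg adjustment over all genes in each, and was tested on simulated data. Python 3.11.15 with pandas 2.3.3 made the tables, and matplotlib 3.10.9 the figures. Named genes were all members, and other filament genes (6 passed) and linkers (13 passed, 8 largest) called in at least 1 contrast with a line mean of at least log2 RPKM 1. Outside this rule, PLEC, KRT10, KRT78, KRT86, CD14, SPARC, COL1A2, FN1, TWIST1, LUM and PDGFRB were named after their values were seen. The same holds for the named endothelial, mesothelial and serous markers other than PAX8, WT1 and PECAM1. Also named were copies with a mean of at least 0, the 3 genes most like KRT8, KRT19 and VIM, and other markers. The members and lists were chosen with earlier results of these data known.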

Additional observations from a re-analysis of the deposited data

How the results depend on the processing

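Low values limited most. In brackets is the share of all tested genes called. With log2(RPKM + 1) the members called were 1 in Ov4Carbo4 against Ov4Carbo (5.45%), 0 in Ov4Carbo7 against Ov4Carbo4 (10.5%) and 3 in Ov4Cis against Ov4Carbo4 (7.69%). With a filter at a mean log2 RPKM of 1, 6 of the 10 genes could be tested. Calls against the parental line were then 5 for Ov4Cis (8.21%) and for Ov4Carbo7 (9.42%), 4 for Ov4Carbo4 (8.07%) and 2 for Ov4Carbo (6.06%). They were 1 in Ov4Carbo4 against Ov4Carbo (8.27%), 0 in Ov4Carbo7 against Ov4Carbo4 (13.7%) and 3 in Ov4Cis against Ov4Carbo4 (9.94%), and 6 genes passed the F-test (79.7%). These counts fell because fewer genes were tested. A title series term left 5 in Ov4Carbo4 against the parental line (17.9%) and gave 1 in Ov4Carbo7 against Ov4Carbo (9.40%), and turned VIM to -0.45 in Ov4Carbo4 and -0.49 in Ov4Carbo7. The cause was not tested. An adjusted p under 0.01 left 1 call between the clones (18.9%), and no limit on fold change gave 2 in Ov4Carbo7 against Ov4Carbo (36.6%). Leaving out a replicate gave 1 to 2 calls between the clones and 0 to 1 in Ov4Carbo7 against Ov4Carbo, where KRT5 was called without Ov4Carbo7 replicate 2. Of 930 log2 fold changes recomputed without a replicate 920 kept direction and call, and of 595 under other settings 559 did. These cover differences from the parental line and those past the adjusted p between resistant lines. Of 365 recomputed values of the 38 remaining differences, 14 changed sign, as did 19 of 570 without a replicate. Ratios of summed RPKM moved by less than 1 SD in 78 recomputations and by more in 7, all from counting the other keratins.

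Replicate numbers did not pair the samples. Over 30 pairs of same-numbered samples from different lines, deviations correlated at -0.394 to 0.437 (median -0.0218). A replicate block changed no call among these genes, with 9, 6, 8 and 9 called against the parental line (Ov4Cis, Ov4Carbo, Ov4Carbo4, Ov4Carbo7), and KRT7 at -8.85 in Ov4Cis. Quantile normalization, median centring and a variance trend changed no call, and the scalings shifted the all-gene median by at most 0.001. Using only the groups compared lost KRT6A in Ov4Carbo4 against Ov4Carbo (adjusted p = 0.0844).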
